A study of Mus musculus with 9 samples.

Results

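The hormone receptors and signal transducers that govern lactation in the mammary gland were followed in adipose stromal cells (ASCs), a mixed culture from the mammary fat pad that the study describes as holding preadipocytes, adipocytes, their stem cells and further stromal cells. The 9 genes considered were Prlr, Ghr, Esr1, Esr2, Pgr, Nr3c1, Oxtr, Stat5a and Stat5b, and they were chosen by name. A gene counted as measured where at least 1 probe set was annotated to its symbol alone. This held for 8 of the 9, each with 1 probe set, out of 19930 genes with such a probe set. No probe set was named for Prlr alone in the annotation used here, so Prlr was not analysed.

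The RNA was hybridised to 9 Affymetrix mouse gene arrays, and each array gave 1 background-corrected and normalised log2 signal per probe set. The ASCs came from mammary glands of female Balb/c mice of 3 kinds. ASC-Ns were from nulliparous mice at 8 weeks of age that had not been housed with males, ASC-Ls were from mice at day 5 of lactation, and ASC-Is were from mice at day 3 of involution after breeding, with 3 arrays in each group. The study's methods state that the bred mice were 8 weeks old when mated. No transgene or agent is named for any mouse. The tissue was digested with collagenase and hyaluronidase and spun, and the study's methods state that RNA came from cultures of low passage grown in serum. The labels call the 3 arrays of a group biological replicates but do not say which mice, or how many, stood behind each one, so the p-values reflect only how far these preparations differed.

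Prolactin and growth hormone bind cytokine receptors at the cell surface, the products of Prlr and Ghr, which activate the kinase Jak2. Jak2 phosphorylates Stat5a and Stat5b, which enter the nucleus and, in the secretory epithelium, switch on milk protein genes. Estrogen, progesterone and glucocorticoids instead act through nuclear receptors that bind DNA themselves, and estrogen is a classical inducer of the progesterone receptor gene Pgr. Oxytocin released during suckling acts on a G protein-coupled receptor, encoded by Oxtr, and makes the myoepithelium contract. The stroma of the gland also carries several of these receptors.

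The arrays differed in what other cells they held. Fibroblast genes were high throughout, with Pdgfra between 8.86 and 11.4 and Col1a1 between 12.6 and 13.4. Pdgfra was lowest in ASC-L replicate 2 (8.86) and ASC-I replicate 2 (9.86), against 10.6 to 11.4 in the other 7 arrays. Among the adipocyte genes Fabp4 lay between 7.50 and 8.45 and Adipoq between 3.82 and 4.41. The mean of the 14 measured adipocyte markers varied little, from 5.96 to 6.21. The mean log2 signal of 21 luminal epithelial markers, among them Krt8, Krt18 and Epcam, reached 8.81 for ASC-L replicate 2 and 7.49 for ASC-I replicate 2, against 5.80 to 6.81 in the other 7 arrays. The 13 measured basal markers followed, at 8.92 and 7.27 against 5.50 to 6.25. Of the milk genes, Csn2 reached 6.62 and 5.46 in these 2 arrays and lay between 4.09 and 4.56 in the rest. The 21 measured macrophage markers, such as Csf1r and Lyz2, had means of 8.13, 7.99 and 6.0 in the ASC-Ns, 6.74, 6.59 and 6.36 in the ASC-Ls and 8.77, 7.22 and 7.67 in the ASC-Is. ASC-N replicate 3 thus stood apart from the other ASC-Ns in macrophage signal, and its luminal mean of 5.90 was also below theirs of 6.81 and 6.77. The luminal means of ASC-L and ASC-I replicates 1 and 3 were between 5.80 and 6.16. ASC-N replicates 1 and 2 were thus above these arrays, and they stay in where both arrays of high epithelial signal are left out. For Pgr, Esr1, Nr3c1, Stat5b and several list genes, results are given below with and without 1 or both arrays of high epithelial signal. Macrophage signal also differed by stage, and every ASC-L mean was below every ASC-I mean. Between ASC-Ls and ASC-Is, 20 of the 21 macrophage markers were lower, with a median log2 difference of -1.34. Of these, 10 passed the limits used below, beside 0.482% of all genes. The part of macrophages in the stage differences below was not tested. In such bulk samples, fewer cells of a type and less RNA per cell cannot be told apart.

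The sequences before transcript starts of the members are shown first, as reference for the genes whose signals are described. Windows of 250 bases, each ending at the base before a start in RefSeq's annotation of GRCm38.p6, were examined for 8 of the 9 genes, and none was used for Nr3c1. All windows were searched on both strands for 3 motifs: GGTCA, the half-site of the estrogen receptor, TGTTCT, the half-site of the progesterone and glucocorticoid receptors, and TTCNNNGAA, the core of Stat binding sites. Of 32851 windows of this length over the genome, 35.2% held the first, 16.1% the second and 7.0% the third.

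The second of 2 windows of Esr1, at chr10:4709908-4710157 on the plus strand, is shown because it was the only window examined of a measured gene with the Stat core, which is in capitals. The Pgr window, at chr9:8899583-8899832 on the plus strand, held none of the 3 motifs and is shown because Pgr varied most among the members. The Oxtr window, at chr6:112489826-112490075 on the minus strand, is shown because Oxtr alone separated the ASC-Is from all other arrays, and its single estrogen receptor half-site is in capitals. Both Ghr windows and the first windows of Esr1 and Stat5b also held none of the motifs, and the Esr2 window held 2 estrogen receptor half-sites.
Esr1: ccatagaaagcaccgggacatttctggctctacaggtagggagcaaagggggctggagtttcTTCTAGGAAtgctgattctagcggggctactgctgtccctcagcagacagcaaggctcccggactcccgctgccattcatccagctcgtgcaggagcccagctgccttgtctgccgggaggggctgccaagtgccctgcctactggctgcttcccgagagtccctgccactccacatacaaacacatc
Pgr: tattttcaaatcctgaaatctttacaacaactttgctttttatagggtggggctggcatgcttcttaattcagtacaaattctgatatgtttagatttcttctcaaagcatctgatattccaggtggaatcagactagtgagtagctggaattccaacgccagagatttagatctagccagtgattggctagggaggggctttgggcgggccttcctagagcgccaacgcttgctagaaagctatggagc
Oxtr: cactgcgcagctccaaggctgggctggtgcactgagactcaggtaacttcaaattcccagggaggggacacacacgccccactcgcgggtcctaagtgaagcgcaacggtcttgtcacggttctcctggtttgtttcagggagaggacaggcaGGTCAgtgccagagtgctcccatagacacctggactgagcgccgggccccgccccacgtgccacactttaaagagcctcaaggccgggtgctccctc
A match in these windows is a description of letters, and no match says only that the letters were not in this window.

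Stat5a and Stat5b are neighbours on chromosome 11, lie head to head in opposite orientation and are separated by 346 bases in this annotation. Their second windows, at chr11:100860234-100860483 on the plus strand for Stat5a and at chr11:100822571-100822820 on the minus strand for Stat5b, shared a run of 16 bases, which is in capitals. The run lay at bases 219 to 234 of the Stat5a window and at bases 228 to 243 of the Stat5b window. With the windows aligned on it, 94 of 241 bases were identical, or 39.0%. Each window also held 1 estrogen receptor half-site, as TGACC, before the run.
Stat5a: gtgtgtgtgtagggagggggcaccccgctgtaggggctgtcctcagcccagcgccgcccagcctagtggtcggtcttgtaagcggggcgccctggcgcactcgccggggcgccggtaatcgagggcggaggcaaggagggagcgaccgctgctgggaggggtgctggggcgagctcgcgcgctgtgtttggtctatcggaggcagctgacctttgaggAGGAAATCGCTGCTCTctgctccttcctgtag
Stat5b: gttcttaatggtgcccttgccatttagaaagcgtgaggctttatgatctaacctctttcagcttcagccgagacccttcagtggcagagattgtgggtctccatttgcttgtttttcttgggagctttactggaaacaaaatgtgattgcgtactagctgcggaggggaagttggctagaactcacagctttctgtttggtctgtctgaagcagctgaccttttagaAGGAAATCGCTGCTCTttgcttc
The first Stat5a window, at chr11:100859406-100859655 on the plus strand, held 3 matches to the estrogen receptor half-site on either strand, all in its last part and all in capitals.
Stat5a, first window: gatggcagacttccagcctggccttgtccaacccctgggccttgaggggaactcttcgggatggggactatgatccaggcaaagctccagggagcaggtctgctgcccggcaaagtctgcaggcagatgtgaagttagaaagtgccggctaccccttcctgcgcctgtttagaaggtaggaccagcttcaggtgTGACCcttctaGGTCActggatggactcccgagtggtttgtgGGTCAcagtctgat

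None of the 8 measured genes passed the limits of an unadjusted p under 0.05 and a change of at least 1.5-fold in any comparison, with limma fitted over all genes and arrays. The question was whether the lactating gland's stroma carries more or less of the receptors than the nulliparous or the involuting one. Between ASC-Ls and ASC-Ns, 0 of 8 passed while 0.627% of all genes did. The corresponding values were 0 of 8 and 0.482% between ASC-Ls and ASC-Is, and 0 of 8 and 0.251% between ASC-Is and ASC-Ns. Also at an unadjusted p under 0.05 without a fold limit, none of the 8 passed, beside 3.64%, 1.8% and 1.56% of all genes in the same order. In the moderated F-test over the 3 stages 0 of 8 had an unadjusted p under 0.05, beside 1.73% of all genes. After Benjamini-Hochberg adjustment no gene at all passed 0.05 by limma, and the adjusted p of every member was 0.998 or higher. The count of genes past the limits between ASC-Ls and ASC-Is rose from 96 to 207 with the replicate number as a block, and the members past them stayed at 0.

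**Figure D1:**
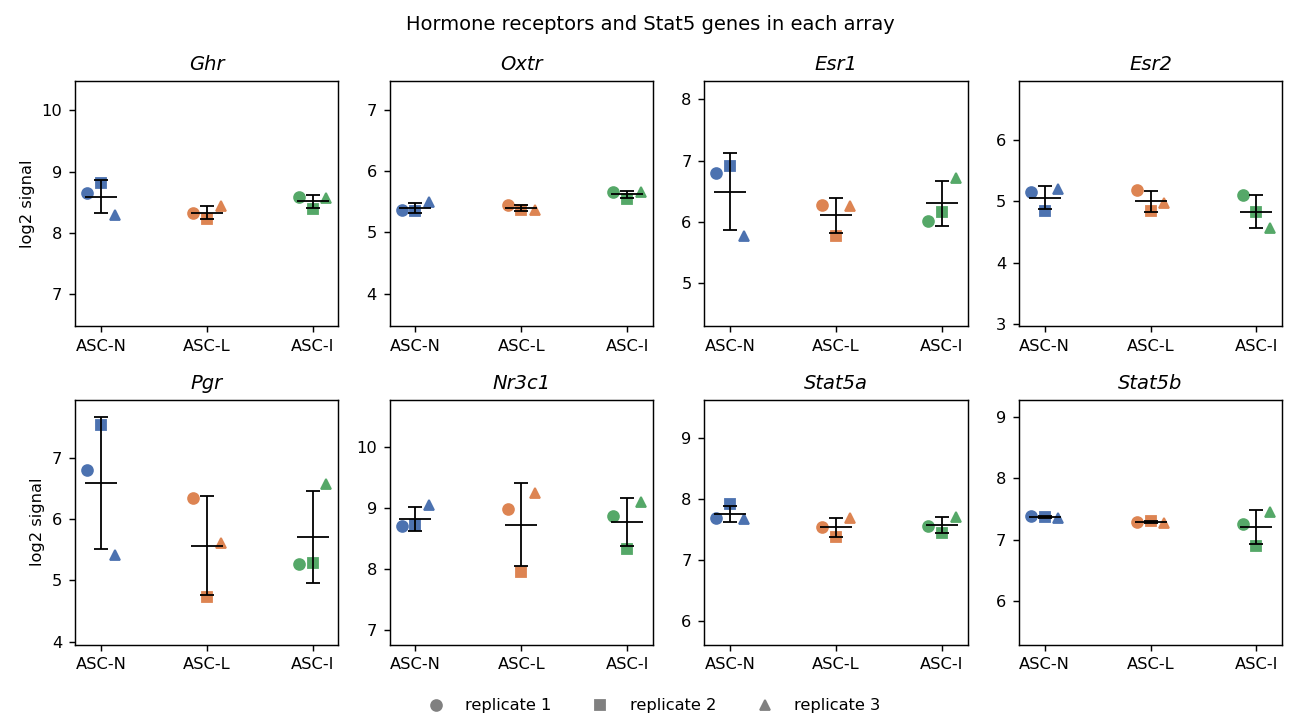
Log2 signal (vertical axes, each spanning the same width) of the 8 measured genes in the 3 arrays of ASC-Ns, ASC-Ls and ASC-Is. Symbols mark the replicate number, horizontal bars the mean and whiskers the SD (n = 3); Pgr and Esr1 spread widely within each group, while the 3 ASC-I values of Oxtr lie between 5.55 and 5.66, above all other arrays.

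Ghr, the receptor for growth hormone, had log2 signals of 8.65, 8.82 and 8.29 in the ASC-Ns, 8.33, 8.23 and 8.44 in the ASC-Ls and 8.58, 8.40 and 8.57 in the ASC-Is. The groups overlapped in every comparison. ASC-N replicate 3 lay among the ASC-Ls and below all ASC-Is, and ASC-L replicate 3 lay above ASC-I replicate 2. The mean was 8.59 ± 0.27 (SD, n = 3) in ASC-Ns and 8.33 ± 0.11 in ASC-Ls, a log2 difference of -0.26 (SE 0.15, 95% interval -0.59 to 0.08). Its adjusted p by limma was 0.998. Without ASC-N replicate 3 the difference was -0.40 with an unadjusted p of 0.0149 by limma, but 1.32-fold and so short of the fold limit, and the adjusted p was 0.838. Ghr also followed the macrophage markers across the 9 arrays, with Pearson's r of 0.78 and Spearman's rho of 0.80, and r of 0.84 without the 2 arrays farthest from the median marker mean. The part of macrophages in its signal was not tested.

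The steroid receptor genes Pgr, Esr1 and Nr3c1 varied most among the members, with an SD over the 9 arrays at the 98.1, 89.1 and 88.1 percentile of all genes. Pgr, which binds progesterone, had log2 signals of 6.81, 7.53 and 5.42 in the ASC-Ns. It had 6.35, 4.74 and 5.61 in the ASC-Ls and 5.26, 5.28 and 6.58 in the ASC-Is. The 2 highest arrays were ASC-Ns, but the remaining ASC-N lay among the values of the other groups. The range over the 9 arrays was 2.80. The lowest value, 4.74 in ASC-L replicate 2, was near background. It lay below 4.98, the 95th percentile of mean signal among olfactory receptor genes, a rough reference described with Esr2. Of those genes 99.5% had a mean at or below that of Pgr. Mean Pgr signal was 6.58 ± 1.07 in ASC-Ns and 5.56 ± 0.81 in ASC-Ls (SD, n = 3). The log2 difference of -1.02 (SE 0.60) had a 95% interval of -2.39 to 0.35, with an unadjusted p of 0.126 and an adjusted p of 0.998 by limma. Against ASC-Ns, the ASC-I mean of 5.71 ± 0.76 differed by -0.88, with an interval of -2.25 to 0.49.

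Esr1, the estrogen receptor alpha gene, had log2 signals of 6.80, 6.91 and 5.77 in the ASC-Ns. It had 6.28, 5.77 and 6.26 in the ASC-Ls and 6.02, 6.16 and 6.72 in the ASC-Is. As with Pgr, ASC-N replicates 1 and 2 held the highest values, and ASC-N replicate 3 lay far below them. The difference between ASC-Ls and ASC-Ns was -0.39 (SE 0.32), with a 95% interval of -1.11 to 0.33 and an adjusted p of 0.998 by limma.

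Leaving out single arrays made these differences larger or smaller. Over the 19 other settings, Pgr between ASC-Ls and ASC-Ns ranged from -1.60 to -0.55 and Esr1 from -0.75 to -0.18. The smallest differences of both came without ASC-N replicate 2 and the largest without ASC-N replicate 3. Either gene passed the limits only without ASC-N replicate 3. Without it, Pgr signal was 3.04-fold lower in the lactation group than in the nulliparous one (log2 -1.60, SE 0.54, 95% interval -2.86 to -0.35, unadjusted p 0.0188 by limma). Esr1 was then lower by 1.68-fold (log2 -0.75, SE 0.24, unadjusted p 0.0143 by limma), and Pgr likewise fell between nulliparous and involution arrays (log2 -1.46, unadjusted p 0.0280 by limma). The adjusted p was 0.838 for both genes between ASC-Ls and ASC-Ns and 0.988 for Pgr between ASC-Is and ASC-Ns. The number of all genes past the limits also grew, from 125 to 352 between ASC-Ls and ASC-Ns and from 50 to 221 between ASC-Is and ASC-Ns. The ASC-Ns kept, replicates 1 and 2, had higher luminal and macrophage means than replicate 3. With the luminal mean, Esr1 and Pgr had r of -0.21 and -0.34 over the 9 arrays, and both 0.77 without ASC-L and ASC-I replicate 2. With the macrophage mean, r over the 9 arrays was 0.54 and 0.41, and 0.85 and 0.76 without ASC-I replicate 1 and ASC-N replicate 3. The part of these cells in the signals of Esr1 and Pgr was not tested.

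Pgr and Esr1 moved together from array to array. Over the 9 arrays Pearson's r was 0.93 and Spearman's rho 0.90, and r was 0.85 without the 2 arrays farthest from the median of Esr1, which were ASC-N replicates 1 and 2. The deviations from the stage means had r of 0.94, and the 3 arrays of each stage came in the same order for both genes in all 3 stages. Of the 28 pairs among the 8 measured genes this was the highest r. The median was 0.25, the lowest -0.32, and 6 pairs exceeded 0.7. These coefficients describe arrays that share RNA preparation and normalisation.

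**Figure D2:**
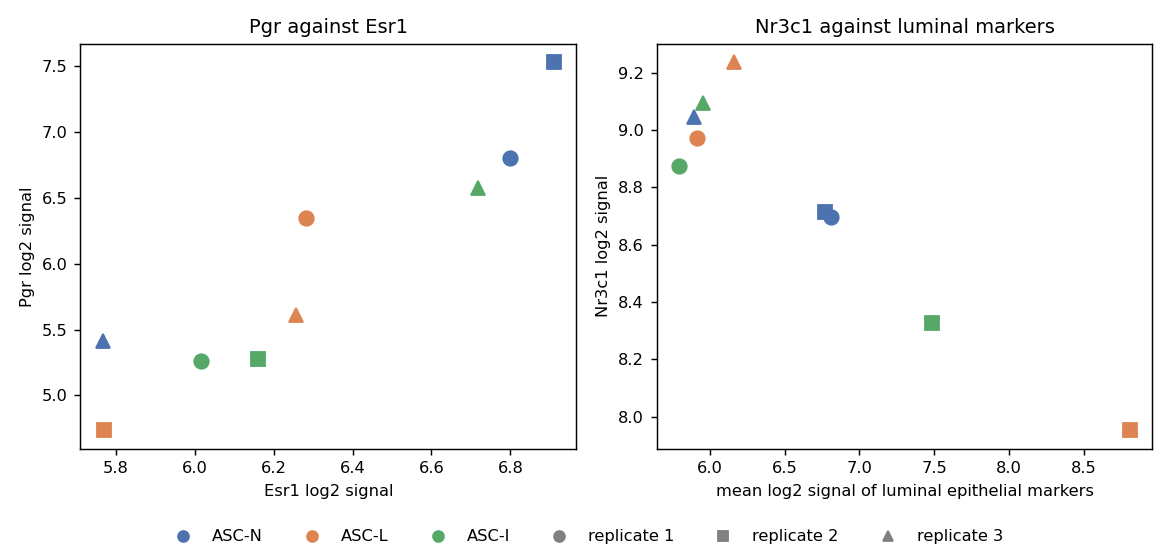
Pgr against Esr1 (left) and Nr3c1 against the mean of 21 luminal epithelial markers (right), in log2 signal, with 1 point per array, colours for the stage and symbols for the replicate number. Pgr rises with Esr1 (r = 0.93), and Nr3c1 is lowest in ASC-L replicate 2 and ASC-I replicate 2, which have the highest marker means (r = -0.94).

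Among the 9161 genes with an SD of at least 0.2 over the arrays, those most like Esr1 were Snai2, a transcription factor of mesenchymal cells (r = 0.97), the aminopeptidase gene Lvrn (0.94) and the histone variant gene Macroh2a2 (0.93). Those most like Pgr were E330013P04Rik (r = 0.97), Macroh2a2 (0.94) and the fatty acid elongase gene Elovl5 (0.92). Macroh2a2 was thus named for both receptors.

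Esr2, the estrogen receptor beta gene, had log2 signals of 5.15, 4.84 and 5.19 in the ASC-Ns, 5.18, 4.85 and 4.97 in the ASC-Ls and 5.10, 4.83 and 4.57 in the ASC-Is. The 3 groups overlapped throughout. The largest of its 3 differences, -0.23 between ASC-Is and ASC-Ns, had a 95% interval of -0.61 to 0.15. Its signal was dim: 94.8% of 1027 olfactory receptor genes, which serve as a rough reference for genes little used outside the nose, had a mean signal at or below that of Esr2. Probe sets differ in brightness for reasons other than RNA, so this places Esr2 only near background. The genes most like it were Anxa9 (r = 0.93), 2700046A07Rik (0.93) and Prima1 (0.91).

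Nr3c1, the glucocorticoid receptor gene, had log2 signals of 8.70, 8.71 and 9.04 in the ASC-Ns. It had 8.97, 7.95 and 9.24 in the ASC-Ls and 8.87, 8.33 and 9.10 in the ASC-Is. The low values, 7.95 and 8.33, were those of the 2 arrays with the highest epithelial markers, and the other 7 arrays lay between 8.70 and 9.24. The stage means were 8.82 ± 0.20, 8.72 ± 0.68 and 8.77 ± 0.40 (SD, n = 3), and none of the 3 differences exceeded 0.10 in size.

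The log2 difference of Nr3c1 between ASC-Ls and ASC-Ns was -0.10, with a 95% interval of -0.83 to 0.64, and became 0.29, with an interval of -0.10 to 0.67, without both arrays of high epithelial signal. Across the 9 arrays, Nr3c1 had r of -0.94 and rho of -0.68 with the luminal marker mean and r of -0.94 with the basal one. Without the 2 arrays r with the luminal mean was -0.67. Other marker means also went with Nr3c1. Over the 9 arrays r was 0.84 for fibroblasts and preadipocytes, -0.81 for endothelium and -0.81 for pericytes and smooth muscle. It was -0.04 for macrophages and 0.28 for adipocytes. The part of epithelial or other cells in the signal of Nr3c1 was not tested. The genes closest to Nr3c1 were the purine enzyme gene Xdh (r = 0.99), the scavenger receptor gene Colec12 (0.98) and the lysosomal sulfatase gene Arsa (0.98).

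Oxtr, the oxytocin receptor gene, had log2 signals of 5.36, 5.34 and 5.50 in the ASC-Ns. It had 5.45, 5.37 and 5.37 in the ASC-Ls and 5.66, 5.55 and 5.66 in the ASC-Is. All 3 ASC-Is lay above the 6 other arrays, by little. Of all genes 64 had this pattern, or 0.321%, and Oxtr was the only one among the 8 measured members.

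The means of Oxtr were 5.40 ± 0.09 in ASC-Ns, 5.40 ± 0.05 in ASC-Ls and 5.62 ± 0.06 in ASC-Is (SD, n = 3). The log2 difference was 0.22 (SE 0.10) between ASC-Is and ASC-Ns, with an unadjusted p of 0.0567 by limma, and -0.23 (SE 0.10) between ASC-Ls and ASC-Is, with 0.0507. The moderated F-test over the 3 stages gave an unadjusted p of 0.0848, and all adjusted p were above 0.999. Both differences were near 1.17-fold and under the fold limit, and they share the ASC-I arrays. Over the 19 other settings they ranged from 0.18 to 0.27 and from -0.26 to -0.21. Its signal was also dim, with 98.4% of the olfactory receptor genes at or below it.

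Stat5a, the signal transducer first known as the mammary gland factor, had log2 signals of 7.70, 7.91 and 7.67 in the ASC-Ns, 7.53, 7.38 and 7.69 in the ASC-Ls and 7.56, 7.45 and 7.71 in the ASC-Is. The lactation and involution arrays overlapped the nulliparous ones only through replicate 3 of each. The difference between ASC-Ls and ASC-Ns was -0.22 (SE 0.13), with a 95% interval of -0.51 to 0.07 and an adjusted p of 0.998 by limma. A 1.5-fold change of Stat5a in either direction lay outside the intervals of all 3 comparisons.

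Stat5b, the paralog, had log2 signals of 7.39, 7.36 and 7.35 in the ASC-Ns, 7.29, 7.31 and 7.26 in the ASC-Ls and 7.25, 6.90 and 7.46 in the ASC-Is. All ASC-Ls were below all ASC-Ns, which held for 3.70% of all genes, and the difference was only -0.08 (SE 0.14, 95% interval -0.40 to 0.24). The lowest Stat5b signal was that of ASC-I replicate 2, 1 of the 2 arrays of high epithelial signal. Between ASC-Is and ASC-Ns the Stat5b difference was -0.17, and -0.02 without both of these arrays. The coding sequences of the paralogs are closely related, and whether their probe sets capture each other's RNA was not tested.

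Between ASC-Ls and ASC-Ns all 8 differences were below 0, with a median of -0.16, while 48.3% of all genes were below 0 and their median was 0.01. The sign count was not stable. Without ASC-N replicate 3, without ASC-L replicate 2 or without both arrays of high epithelial signal, 5 of 8 were below 0, and Esr2, Nr3c1 and Oxtr were above. Between ASC-Is and ASC-Ns 7 of 8 were below 0 with a median of -0.18, beside 49.1% of all genes. Between ASC-Ls and ASC-Is it was 6 of 8 with a median of -0.09, beside 48.0% of all genes, and without ASC-I replicate 3 it fell to 2 of 8 and without ASC-L replicate 2 to 3 of 8. The comparisons share groups and the members share arrays, so these counts are descriptions.

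**Figure D3:**
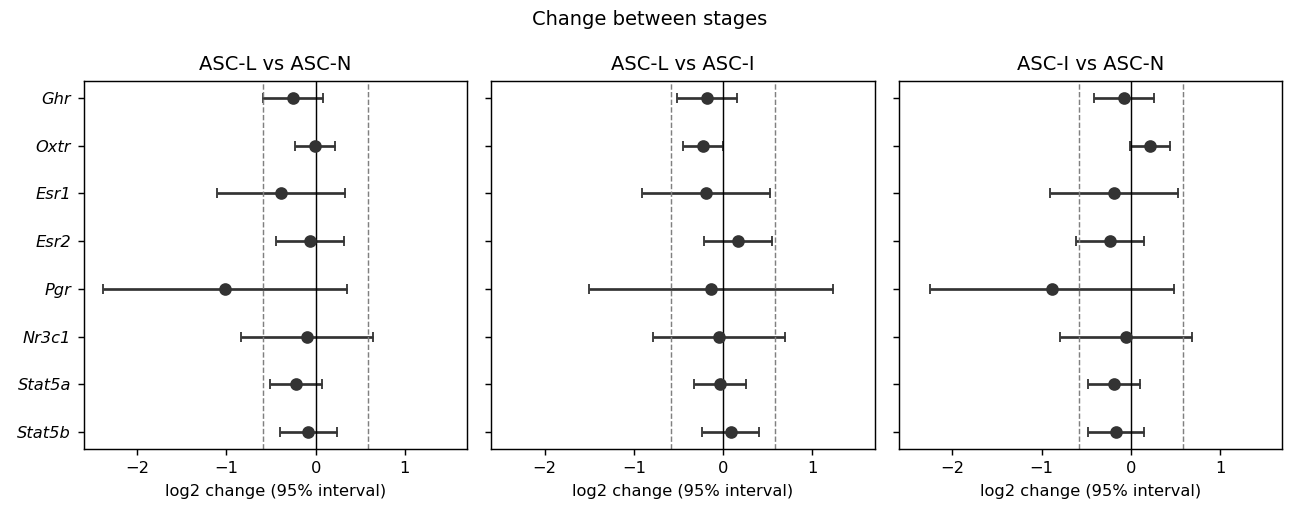
Log2 difference between stages (horizontal axis) for each measured gene in the 3 comparisons, with points for the estimate and bars for the 95% interval by limma. Dashed lines mark 1.5-fold; every interval includes 0, and that of Pgr between ASC-Ls and ASC-Ns reaches from -2.39 to 0.35.

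The precision differed widely among the genes. The 95% interval reached 0.23 to either side for Oxtr, 0.29 for Stat5a, 0.32 for Stat5b, 0.34 for Ghr and 0.38 for Esr2. It reached 0.72 for Esr1, 0.74 for Nr3c1 and 1.37 for Pgr, each wider than 1.5-fold on the log2 scale. Of the other genes, the intervals of Ghr between ASC-Ls and ASC-Ns and of Esr2 between ASC-Is and ASC-Ns also extended past 1.5-fold lower, to -0.59 and -0.61.

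The genes around the receptors were examined in 9 lists of ligands, other receptors, kinases, inhibitors, partners and targets, which held 133 measured genes, each counted once. Of these, 3 passed when ASC-Ls were set against ASC-Ns (2.26%, beside 0.627% of all genes), 1 between ASC-Ls and ASC-Is (0.752%, beside 0.482%) and 0 between ASC-Is and ASC-Ns (beside 0.251%). With the replicate block, 8 of the 133 passed between ASC-Ls and ASC-Is, all lower in ASC-Ls. The block also raised the count over all 19930 genes, from 96 to 207. The 8 were Cebpd, Dusp1, Igf1, Il6st, Nfkbia, Rgs2, Thra and Vdr. Each had an adjusted p of 0.996 by limma. Against ASC-Ns the block also gave 8 genes, of which 3 were higher and 5 lower in the ASC-Ls. Over all genes the count rose there from 125 to 295. The same block was applied, although the replicate numbers were not taken to pair ASC-Ns with other arrays. Its p-values against ASC-Ns, such as that of Igf1 below, thus rest on a pairing that was not taken to hold. Of 8 measured ligands and steroid-converting enzymes, none passed. The growth factor gene Igf1, a target of growth hormone through Stat5, had the largest difference among them, -0.94 between ASC-Ls and ASC-Ns. Its log2 signals were 7.61, 6.85 and 7.33 in the ASC-Ns, 6.82, 5.62 and 6.52 in the ASC-Ls and 7.72, 6.02 and 7.62 in the ASC-Is. Every ASC-L was below every ASC-N, which held for 3.7% of all genes. The difference (SE 0.47, unadjusted p 0.0782 by limma) passed the limits in 4 of 19 other settings, namely with only the 2 stages fitted (p 0.0277), with the replicate block (p 0.00177), without ASC-I replicate 2 (p 0.0170) and with the 2 epithelium-rich arrays, ASC-L and ASC-I replicate 2, left out together (-0.59, p 0.0324). Without ASC-L replicate 2 alone it was -0.59 and did not pass. With the replicate block, Igf1 was also past the limits between ASC-Ls and ASC-Is, at -0.80 (unadjusted p 0.00443 by limma).

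Of 20 other hormone and growth factor receptors, only Vdr, the vitamin D receptor gene, passed without the block. Its log2 signals were 8.61, 8.03 and 8.75 in the ASC-Ns and 8.01, 7.15 and 6.69 in the ASC-Ls. Every ASC-L was below every ASC-N, which held for 3.7% of all genes. Vdr was lower in ASC-Ls by 1.18 on the log2 scale (log2 -1.18, SE 0.37, unadjusted p 0.0108 and adjusted p 0.998 by limma), and it stayed past the limits in every setting except Benjamini-Hochberg adjustment. The median of the list was -0.03, beside 0.01 over all genes.

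None of 9 Jak kinases, other Stat genes and Src-family kinases passed, and the list's median between ASC-Ls and ASC-Ns was -0.13. The largest difference was that of Stat2, an interferon signal transducer, at -0.37 between ASC-Is and ASC-Ns (SE 0.65, unadjusted p 0.581 by limma). Without ASC-I replicate 2, an array of high epithelial signal, it was 0.14. Jak2, the kinase of the prolactin and growth hormone receptors, was looked at after its values were seen. It had -0.28 between ASC-Ls and ASC-Ns (SE 0.23) and -0.30 between ASC-Is and ASC-Ns.

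None of the 18 inhibitors of Jak and Stat signalling passed either. The phosphatase gene Ptpn6, used mainly by blood cells, had the largest difference, -0.56 between ASC-Ls and ASC-Is, and passed the limits only with array weights (-0.68, unadjusted p 0.0346 by limma). Cish, a feedback inhibitor induced by Stat5, was named after its values were seen. Its log2 signals were 5.73, 5.81 and 6.17 in the ASC-Ns, 6.03, 6.26 and 6.03 in the ASC-Ls and 6.48, 6.14 and 6.33 in the ASC-Is. The difference of 0.42 between ASC-Is and ASC-Ns (SE 0.15, unadjusted p 0.0220 and adjusted p above 0.999 by limma) was 1.34-fold and did not reach the fold limit. Socs2, another such inhibitor and named in the same way, differed by 0.05 at most between stages.

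Of 20 targets of Stat5, 1 passed. Wap, the milk whey protein gene, rose in ASC-Ls over ASC-Ns by 0.81 (SE 0.34, 1.75-fold, unadjusted p 0.0407 and adjusted p 0.998 by limma). Its log2 signals were 5.40, 5.30 and 5.13 in the ASC-Ns and 5.78, 6.90 and 5.57 in the ASC-Ls, and the highest of them belonged to ASC-L replicate 2, the array of highest epithelial signal. Without that array the difference was 0.40 and no longer past the limits, and the part of epithelial cells in it was not tested. The casein gene Csn1s1, named after its values were seen, had the largest difference of the list between these groups, 1.81. It did not pass without the block but did with it (unadjusted p 0.0120 by limma). The list's median was -0.10 between ASC-Ls and ASC-Ns, with 9 genes above 0 and 11 below.

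Of 17 measured targets of the estrogen and progesterone receptors, 1 passed, Stc2, which encodes the secreted glycoprotein stanniocalcin 2. Its log2 signals were 7.53, 6.97 and 7.33 in the ASC-Ns and 7.83, 7.62 and 8.55 in the ASC-Ls. Stc2 rose by 0.73 (SE 0.27, unadjusted p 0.0268 and adjusted p 0.998 by limma), and without ASC-L replicate 3 the difference was 0.45 and short of the limits, as it was at 0.57 without ASC-N replicate 2. The median of the list was -0.09, with 12 of 17 genes below 0.

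Of 15 partners and coregulators of nuclear receptors none passed. Gata3, a transcription factor of luminal cells and partner of the estrogen receptor, had the largest difference, 0.49 between ASC-Ls and ASC-Is. Its highest signal, 7.83, was in ASC-L replicate 2, and the other 8 arrays lay at 6.96 or below. Without that array the difference was -0.05.

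None of the 20 targets of the glucocorticoid receptor passed without the block. The median was -0.24 between ASC-Ls and ASC-Is, where 15 of 20 were below 0 and 5 above, beside 0.01 over all genes. Fkbp5 was the highest of them at 0.46 (SE 0.37), and Tsc22d3 was at 0.16 (SE 0.18). Both were named after their values were seen. Cebpd, a transcription factor induced by glucocorticoids, had the largest difference, -0.71 between ASC-Ls and ASC-Is, with log2 signals of 7.75, 6.05 and 7.90 against 8.13, 6.88 and 8.81. In both groups replicate 2, the array of high epithelial signal, was the lowest. Each ASC-L was below the ASC-I of the same number, by -0.38, -0.83 and -0.91, and Cebpd passed the limits with the replicate block (unadjusted p 0.0140 by limma) but not without it (SE 0.58, unadjusted p 0.257). Without ASC-L replicate 2 the difference was -0.11. With the block Dusp1 and Nfkbia, induced by glucocorticoids as well, also passed. Thus 3 of the 20 targets passed with the block, all lower in ASC-Ls, beside 207 of all 19930 genes. No label pairs these arrays.

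Of 14 genes of the oxytocin response and of contraction, 1 passed. Rgs2, which limits signalling of the G protein that oxytocin's receptor uses, fell in ASC-Ls relative to ASC-Is by 0.97 (log2 -0.97, SE 0.42, unadjusted p 0.0464 and adjusted p above 0.999 by limma). Its log2 signals were 6.18, 6.66 and 7.52 in the ASC-Ls and 7.09, 7.73 and 8.44 in the ASC-Is, so the groups overlapped. The difference ranged from -1.33 without ASC-L replicate 3 to -0.62 without ASC-I replicate 3, where it was no longer past the limits.

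**Figure D4:**
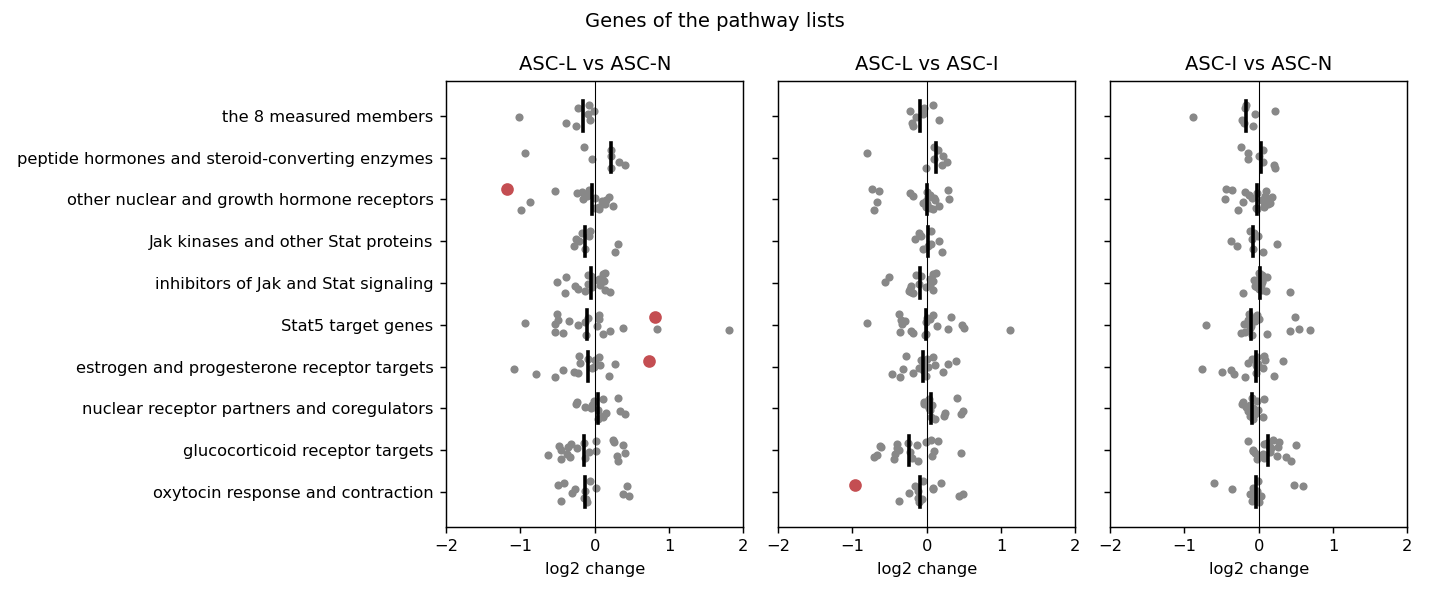
Log2 difference (horizontal axis) of every measured gene of the 9 pathway lists and of the 8 measured members in the 3 comparisons, with grey points for genes short of the limits, red points for the genes past them and black bars for list medians. The red points are Vdr, Wap and Stc2 between ASC-Ls and ASC-Ns and Rgs2 between ASC-Ls and ASC-Is.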

How the data were processed

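Per the labels, total RNA from 9 mammary stromal preparations was hybridised to Affymetrix mouse gene arrays. The authors deposited 1 normalised log2 value per probe set and array. The study's methods name robust multi-array averaging and the submitters' processing notes name GCRMA, with no version, and the deposited values do not say which of them was used. The methods also describe a filter on undetected and little-varying genes. The deposited table held 28348 probe sets, of which 21762 had exactly 1 gene symbol in GEO's platform annotation, 1621 had several and 4965 had none. The sources also differ on the RNA extraction, naming Trizol in the labels and a column kit in the methods. Gene positions and promoter windows came from RefSeq (GRCm38.p6).

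Probe sets of 1 symbol were averaged per gene and fitted with limma 3.58.1 in R 4.3.3, with 1 mean per stage over all 9 arrays and empirical Bayes moderation, tested on simulated data. Benjamini-Hochberg adjustment ran over all 19930 genes. The limits, unadjusted p under 0.05 and 1.5-fold, are those the study's tables use. The number of arrays limits the precision. Array medians lay between 5.93 and 6.00.

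The members and the gene lists were chosen with earlier results of these data known. Named were all members, the genes of each list past the limits or else the 1 of largest change, the 3 genes most alike each member with an SD of at least 0.2, and defining markers. Deviations of same-numbered arrays correlated at 0.47, 0.73 and 0.46 between ASC-Ls and ASC-Is, all above 0.1. The numbers were taken to pair these arrays on that basis alone, since no label states a pairing. The highest value was that of replicate 2, the array of high epithelial signal in both groups. The 3 values are not independent, because the deviations within a stage are tied through its mean. The part of epithelial cells in them was not tested, so block p-values do not come from arrays known to be matched. Between the other groups no pairing was taken, as replicate 1 gave -0.08 and 0.07. Replicates 2 and 3 gave 0.40 and 0.45 for ASC-Ls with ASC-Ns and 0.43 and 0.50 for ASC-Is with ASC-Ns. The block covered the ASC-Ns too. Alternatives covered moderation, array weights, normalisation, filters, probe sets, the block and leaving out each array. No batch is given by the labels.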

Additional observations from a re-analysis of the deposited data

How the results depend on the processing

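No measured member passed the limits in any of the 19 other settings, except without ASC-N replicate 3, where 2 passed between ASC-Ls and ASC-Ns and 1 between ASC-Is and ASC-Ns (range over left-out arrays 0 to 2 and 0 to 1). In the F-test over the stages 0 members passed an unadjusted p of 0.05, 1 did with array weights (Oxtr, p 0.0331 by limma) and 3 without ASC-N replicate 3 (Ghr, Esr1 and Pgr; range over left-out arrays 0 to 3). The number of all genes past the limits moved far more. Between ASC-Ls and ASC-Ns it was 125, and 311 with array weights, 295 with the replicate block, 0 after Benjamini-Hochberg adjustment and 80 to 404 with 1 array left out. The extremes came without ASC-N replicate 1 and without ASC-L replicate 1, and 352 and 230 passed without ASC-N replicate 3 and ASC-L replicate 3. Between ASC-Ls and ASC-Is it was 96, and 207 with the replicate block, 0 after adjustment and 36 to 331 with 1 array left out, from ASC-I replicate 1 to ASC-L replicate 1, with 316 and 61 without ASC-I replicates 2 and 3. For involution against nulliparous arrays the count was 50, and 187 with array weights, 90 with the replicate block, 0 after adjustment and 32 to 221 with 1 array left out, from ASC-N replicate 1 to ASC-N replicate 3, with 83 and 92 without ASC-I replicates 2 and 3. Leaving out both arrays of high epithelial signal, a choice made after seeing the data, gave 194 and 144 in the latter 2 comparisons. The block changed no call of a member, moved the pathway genes past the limits between ASC-Ls and ASC-Is from 1 to 8. The cause of these shifts was not tested. Where a group keeps 2 arrays, its spread is assumed to be that of the others. Wap and Rgs2 kept their direction but passed the limits in only 10 and 7 of 19 other settings, and Stc2 in 17.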
